A study of Mus musculus with 13 samples.

Results

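The septins are a family of cytoskeletal GTP-binding proteins, and their transcripts were followed in 4T1-Thy1.1 cells, a mouse mammary carcinoma line with a Thy1.1 transgene. The members were the entries of the deposited expression table whose names read as days of September, because the old septin symbols had been turned into dates, with the day standing for the septin number. A selenoprotein whose old symbol has the same form would have been left out, but 0 such entries were listed. This gave 9 septins among 13222 genes, namely *Sept1*, *Sept2*, *Sept4*, *Sept6*, *Sept7*, *Sept8*, *Sept9*, *Sept10* and *Sept11*. RefSeq lists 13 mouse septin genes, and the other 4 (*Sept3*, *Sept5*, *Sept12* and *Sept14*) were not analysed here.

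The cells were grown for 48 hours in 4 conditions. Control cells received no agent (n = 3), DOX cells received 200 ng/mL doxorubicin, an anthracycline that damages DNA through topoisomerase II (n = 4), IL-17A cells received 25 ng/mL recombinant mouse IL-17A, an inflammatory cytokine (n = 3), and DOX+IL-17A cells received both at those doses (n = 3). All conditions shared the same line and its transgene, so the results describe 1 line in culture. RNA was read at the 3' end of polyadenylated transcripts as 75 base reads.

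Septins bind GTP and join end to end into rod-shaped complexes, which line up into filaments, rings and gauzes under the plasma membrane. They form a collar at the cleavage furrow and midbody of dividing cells, and they also associate with actin bundles, microtubules and curved membranes, where they act as scaffolds and as barriers to diffusion. Members are grouped by sequence into the SEPT2, SEPT3, SEPT6 and SEPT7 subgroups, and a rod takes members of different subgroups at fixed places, with SEPT7 alone in its subgroup.

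The values are TMM-normalized signal, that is, reads on a gene divided by a library size corrected for RNA composition. Within a library each value was a whole number of equal steps, each step being worth 1 read, so read counts were recovered. Libraries held 4445592 to 16930600 reads on listed genes, and 0.129% to 0.166% of these reads fell on septins. A floor of 3 reads, the least taken as detected, corresponded to 0.183 to 0.613 units, and it covers counting error only. Each read comes from a transcript's end, so septins of different length were compared without dividing by length. Nothing in the labels says that libraries of a condition came from separate experiments, so p-values measure the spread between these libraries, which may be technical. In bulk RNA, fewer cells of a kind and less RNA per cell cannot be told apart.

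Markers were summed to check the label and the libraries. All 7 epithelial markers (*Krt8*, *Krt18*, *Krt19*, *Krt7*, *Epcam*, *Cdh1* and *Cldn4*) were listed, with sums of 1978 to 2325 units in control, 1733 to 2096 with IL-17A, 985 to 1095 with DOX and 869 to 1090 with DOX+IL-17A. Their sum was thus lower in every library with DOX than in every library without it, and the part of this in the septin values was not tested. Skeletal muscle markers (8 of 8 listed) summed to 241 units in DOX replicate 1 and at most 37.0 elsewhere, and red blood cell markers (3 of 5 listed) to 66.5 units there and at most 14.4 elsewhere. Immune (3 of 6), platelet (2 of 5) and neuron (4 of 6) markers summed to at most 36.6, 16.2 and 88.9 units in any library. These peaks were in DOX replicate 1, DOX replicate 2 and IL-17A replicate 5. Defining markers such as *Cd3e*, *Pf4* and *Snap25* were not listed.

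Control replicate 1 and IL-17A replicate 5 stood apart in their septins. *Sept2* was lowest in these libraries, at 229 and 209 units against 356 to 458 units in the other 11 libraries. *Sept11* was highest in them, at 430 and 386 units against 167 to 295 units in the others. The plot of *Sept2* against *Sept11* shows both libraries away from the rest. Across tested genes, their deviations from their condition means correlated at r = 0.47, which ranked 2 among 63 pairs of libraries from different conditions. Results without both are given for several septins in DOX against control and in the average of the DOX comparisons. For DOX+IL-17A against IL-17A or control they are given mostly as counts. This setting was chosen after the values were seen.

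**Figure D1:**
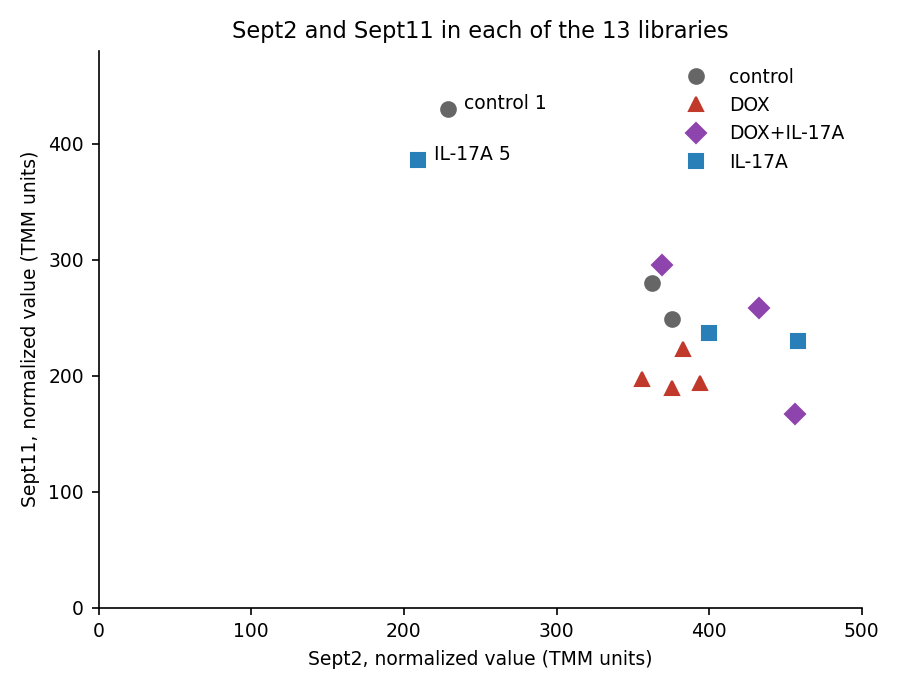
*Sept2* (horizontal axis) and *Sept11* (vertical axis) in normalized units, with 1 point per library and shape and color giving the condition. Control replicate 1 and IL-17A replicate 5 lie at the upper left, at 229 and 209 units of *Sept2*, and the other 11 libraries lie at 356 units of *Sept2* or more.

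With DOX, in libraries with and without IL-17A together, *Sept10* and *Sept6* fell by less than 2-fold at an adjusted p under 0.05, in a comparison added after the values were seen. *Sept7* was also past that threshold, narrowly (limma adjusted p = 0.048), and in only 2 of 13 fits with a library left out. That is 3 of 8 tested septins, against 34.3% of all genes, so the count does not set the septins apart. Under scaling by library size, *Sept6* (limma adjusted p = 0.098) and *Sept7* (0.34) did not pass, while *Sept10* did (0.038). *Sept10* had a mean of 66.8 ± 14.9 units (SD, n = 7) with DOX and 116 ± 27.8 units (SD, n = 6) without it. *Sept6* had 80.3 ± 12.0 units with DOX and 116 ± 23.3 units without it, over the same libraries. *Sept7* had 530 ± 64.7 units with DOX and 682 ± 104 units without it. *Sept8* had 130 ± 7.28 units with DOX and 108 ± 7.22 units without it. Its rise did not pass under TMM (limma adjusted p = 0.091) but passed under scaling by library size (0.0061), so its call depended on the scaling. IL-17A moved no tested septin past the adjusted p, alone (0.00812% of all genes passed) or on top of DOX (0.455%).

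By mean over the 13 libraries, *Sept7* was the highest septin at 600 units, and *Sept2* (369 units), *Sept11* (256 units), *Sept8* (120 units), *Sept6* (96.5 units), *Sept10* (89.5 units), *Sept9* (10.8 units), *Sept4* (1.28 units) and *Sept1* (0.478 units) followed. In control libraries *Sept7* (507 to 716 units) was above *Sept2* (229 to 376 units) without overlap. *Sept2* and *Sept11* overlapped there, as did *Sept10* with *Sept8* and *Sept8* with *Sept6*, so over all control libraries these neighbours were not separated. The overlaps of *Sept2* with *Sept11* and of *Sept10* with *Sept8* rested on control replicate 1. In control replicates 3 and 5, *Sept2* (376 and 363 units) was above *Sept11* (249 and 280 units). *Sept10* (130.2 and 130.4 units) was above *Sept8* (113 and 93.8 units) in the same libraries. In DOX libraries the order of the middle septins was *Sept11*, *Sept8*, *Sept6* and *Sept10*, with overlap between *Sept6* and *Sept10* alone among these neighbours. *Sept8* was thus next after *Sept11* with DOX, at 4 of 4 libraries above *Sept6*, while with IL-17A alone it was below *Sept10* in 3 of 3 libraries.

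**Figure D2:**
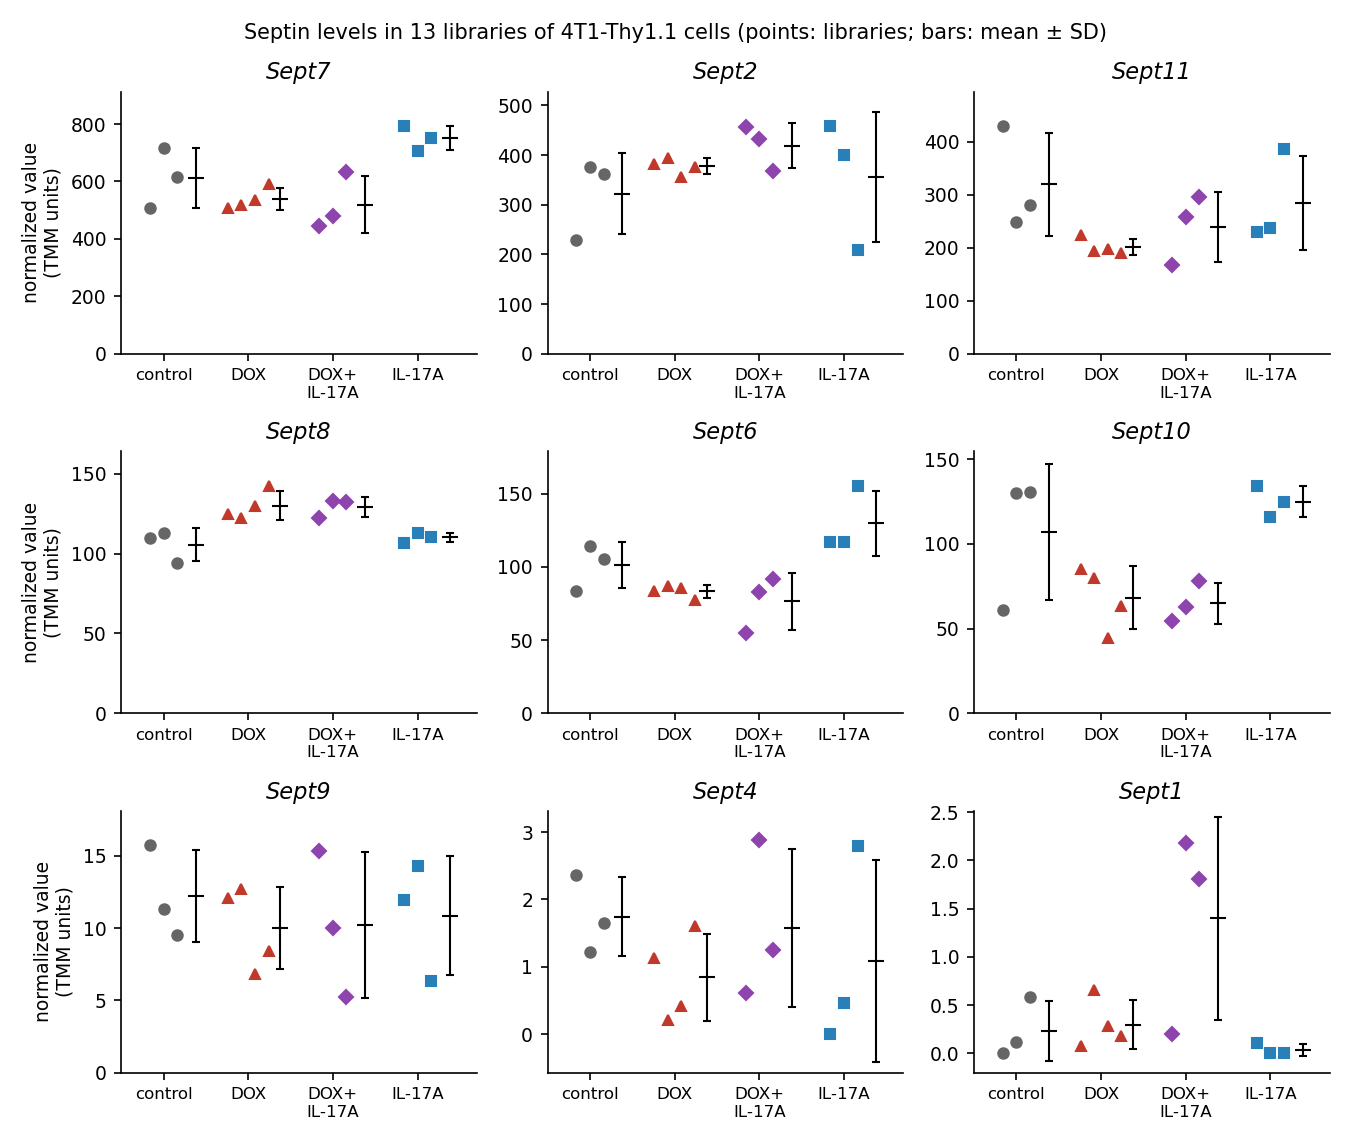
Normalized value (vertical axis, TMM units) of each of the 9 septins in each library, by condition (horizontal axis), with black bars giving the mean ± SD of each condition (n = 3, and 4 for DOX). In *Sept8* all 7 libraries with DOX lie above all 6 without it, while in *Sept9* the 4 conditions overlap. Libraries with and without DOX did not overlap in 14.1% of all genes tested.

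Promoter sequences are shown for *Sept10*, *Sept8* and *Sept7*. *Sept10* had the lowest log2 fold change of the septins in DOX+IL-17A against IL-17A and on average (under DOX against control *Sept11* and *Sept4* were lower). *Sept8* was the septin whose libraries with and without DOX did not overlap, as was so for 14.1% of all genes tested, and *Sept7* was the most abundant. The sequences are from RefSeq (GRCm38.p6), which had entries for 7 of the 9 septins and none for *Sept1* and *Sept6*. Each runs 5' to 3' on the gene's strand, from 250 bases before a start site to 50 bases after it. Capitals mark motif letters found on either strand. In these windows they are the GC box, spelled GGGCGG, or its reverse complement, and the cell cycle homology region, spelled TTTGAA, or its reverse complement. The windows are chr10:59221451-59221750 (minus strand) for *Sept10*, chr11:53519486-53519785 and chr11:53519938-53520237 (plus strand) for *Sept8*, and chr9:25251741-25252040 and chr9:25252642-25252941 (plus strand) for *Sept7*.

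*Sept10*, start site 1: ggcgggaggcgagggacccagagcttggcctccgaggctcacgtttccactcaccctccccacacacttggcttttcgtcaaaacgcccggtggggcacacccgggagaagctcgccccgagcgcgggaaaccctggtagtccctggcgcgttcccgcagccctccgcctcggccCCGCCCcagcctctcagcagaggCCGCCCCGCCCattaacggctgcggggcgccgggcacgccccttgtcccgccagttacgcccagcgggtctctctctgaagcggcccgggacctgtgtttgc
*Sept8*, start site 1: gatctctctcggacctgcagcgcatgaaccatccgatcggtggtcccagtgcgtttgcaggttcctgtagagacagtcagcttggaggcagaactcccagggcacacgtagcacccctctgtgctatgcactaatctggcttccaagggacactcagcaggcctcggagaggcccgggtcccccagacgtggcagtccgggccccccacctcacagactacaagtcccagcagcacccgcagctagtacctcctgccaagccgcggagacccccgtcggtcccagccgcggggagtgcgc
*Sept8*, start site 2: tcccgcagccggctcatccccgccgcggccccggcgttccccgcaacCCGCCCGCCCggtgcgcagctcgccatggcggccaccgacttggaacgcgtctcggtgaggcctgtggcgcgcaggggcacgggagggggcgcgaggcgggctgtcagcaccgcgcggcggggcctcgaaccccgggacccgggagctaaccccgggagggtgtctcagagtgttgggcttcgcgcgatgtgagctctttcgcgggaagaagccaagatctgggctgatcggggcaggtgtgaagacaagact
*Sept7*, start site 1: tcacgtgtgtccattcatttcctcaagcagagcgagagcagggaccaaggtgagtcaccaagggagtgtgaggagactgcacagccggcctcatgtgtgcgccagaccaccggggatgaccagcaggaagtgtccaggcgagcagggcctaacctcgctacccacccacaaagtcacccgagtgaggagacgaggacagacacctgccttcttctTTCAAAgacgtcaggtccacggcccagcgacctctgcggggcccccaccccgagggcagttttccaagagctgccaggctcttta
*Sept7*, start site 2: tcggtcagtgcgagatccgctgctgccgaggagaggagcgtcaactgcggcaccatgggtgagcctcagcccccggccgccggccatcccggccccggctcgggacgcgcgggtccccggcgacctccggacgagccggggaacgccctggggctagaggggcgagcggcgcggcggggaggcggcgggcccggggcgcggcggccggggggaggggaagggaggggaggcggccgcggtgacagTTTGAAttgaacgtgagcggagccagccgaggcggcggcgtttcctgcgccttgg

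In these windows *Sept10* held 3 matches to the GC box, the second start site of *Sept8* held 2, and each *Sept7* window held 1 match to the cell cycle homology region and 0 to the GC box. In both *Sept10* and *Sept8*, 2 of these matches overlap each other in 1 run of capitals. Their GC content was 71.0% for *Sept10*, 64.7% and 72.3% for *Sept8*, and 60.7% and 77.0% for *Sept7*, against a median of 52.7% over 32851 promoters. Over the 16 septin promoters, the GC box was found in 10, the cell cycle homology region in 3, the CCAAT box in 2, the TEAD motif (letters GGAATG) in 2 and the interferon response motif in 0. Some septin windows overlap and hold the same matches, as in *Sept2* and *Sept4*. With overlapping windows joined, the GC box was in 8 of 14 regions, which belong to 6 of the 7 septins with entries. Among all promoters, where overlapping windows were not joined, the motifs were found in 35.7%, 17.9%, 37.4%, 14.7% and 3.44%, searched in the same way on both strands. A match describes the letters of these windows and is no evidence of a bound factor.

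*Sept7*, the only member of its subgroup and a part of every canonical septin rod, lies on chromosome 9 (chr9:25251991-25308571, plus strand). It had 508, 716 and 615 units in control replicates 1, 3 and 5, and 506, 518, 537 and 593 units in DOX replicates 1 to 4. In DOX+IL-17A replicates 2, 3 and 5 it had 445, 480 and 633 units, and in IL-17A replicates 2, 3 and 5 it had 793, 708 and 753 units. All IL-17A libraries were above all DOX+IL-17A libraries, whereas control replicate 1 was as low as the DOX libraries. The last bases of its transcripts matched other listed transcripts, such as those of *Mtif2*, *Nol12* and *Sirt5*, at 95% identity or more over at least 75 bases, and a processed pseudogene, *Gm48272*, at 100%. Its value is uncertain to the extent that reads could be split or lost there.

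*Sept6*, *Sept8*, *Sept10* and *Sept11* form the SEPT6 subgroup, whose members can take each other's place in the rod. *Sept10* (chr10:59141624-59221500, minus strand) had 60.9, 130.2 and 130.4 units in control, 85.3, 80.0, 44.3 and 63.2 units with DOX, 54.2, 62.6 and 78.1 units with DOX+IL-17A, and 134, 116 and 125 units with IL-17A, in the replicate order given for *Sept7*. Of the 6 libraries without DOX, 5 were above the highest library with DOX, and control replicate 1 was the exception. Its condition means had the widest range of any tested septin on the log2 scale, 0.95.

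*Sept6* (chrX:36911272-36990036, minus strand) had 83.6, 114.5 and 105 units in control, 83.6, 86.6, 85.3 and 77.3 units with DOX, 54.8, 82.6 and 91.6 units with DOX+IL-17A, and 117.1, 117.0 and 155 units with IL-17A. The highest library with DOX, at 91.6 units, was below 5 of 6 libraries without it, and control replicate 1 was again the exception. An antisense gene, *Gm15008*, lies over the end of *Sept6* on the other strand and was not listed. The sources used here do not give whether reads were counted by strand, so reads of *Sept6* and *Gm15008* cannot be told apart.

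*Sept8* (chr11:53519397-53549605, plus strand) had 110, 113 and 93.8 units in control, 125, 123, 130.0 and 143 units with DOX, 122, 133.2 and 132.5 units with DOX+IL-17A, and 107, 113 and 110 units with IL-17A. The lowest library with DOX (122 units) was above the highest without it (113 units), and 14.1% of all genes tested also had no overlap. *Sept8* also had the smallest spread of the tested septins over all libraries, with a coefficient of variation of 11.1%.

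*Sept11* (chr5:93090995-93182368, plus strand), a septin also found in neurons at synapses, had 430, 249 and 280.3 units in control, 223, 194, 197 and 189 units with DOX, 167, 258 and 295 units with DOX+IL-17A, and 230, 237 and 386 units with IL-17A. The 4 DOX libraries were below the 3 control libraries, but with IL-17A present the libraries with and without DOX overlapped.

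In the SEPT2 subgroup, *Sept2*, whose protein binds non-muscle myosin, was the main member (chr1:93478981-93509733, plus strand). It had 229, 376 and 363 units in control, 383, 394, 356 and 376 units with DOX, 456, 432 and 369 units with DOX+IL-17A, and 458, 400 and 209 units with IL-17A. Libraries with and without DOX overlapped, and the low values were those of control replicate 1 and IL-17A replicate 5.

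*Sept4* (chr11:87566689-87590543, plus strand), whose ARTS isoform promotes apoptosis, was near the floor, with 0 to 34 reads a library and 0 to 2.88 units. Its isoforms were not separated by these values. *Sept1* (chr7:127212709-127232985, minus strand) had 0 to 6 reads in all libraries but DOX+IL-17A replicates 3 and 5, where it had 22 and 29 reads (2.18 and 1.81 units). The third DOX+IL-17A library, replicate 2, had 1 read of *Sept1* at the lowest depth of all libraries, 4445592 reads. *Sept1* did not reach the read minimum for testing and has no fold here.

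*Sept9*, the listed member of the SEPT3 subgroup, which extends the rod to a longer form (chr11:117199661-117362325, plus strand), had 5.24 to 15.7 units over the 13 libraries. Its lowest and highest values were 9.55 and 15.7 units in control, 6.85 and 12.7 units with DOX, 5.24 and 15.3 units with DOX+IL-17A, and 6.32 and 14.3 units with IL-17A. All conditions overlapped, with 49 to 186 reads a library.

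Differential expression was tested with limma on log2(value + 1) over 12319 genes with enough reads, of which 8 were septins, with Benjamini-Hochberg adjustment over all of them. A gene passed at an adjusted p under 0.05 with a fold above 2, and the adjusted p alone was used as a second rule. Fold changes are on the log2(value + 1) scale, which understates those of low genes such as *Sept4*. Comparisons that share libraries are given side by side. DOX against control and DOX+IL-17A against IL-17A share none, and their average (7 libraries with DOX against 6 without) was added after the values were seen.

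Under DOX against control, 0 of 8 septins passed both thresholds, where 15.3% of all genes did, and 0 of 8 passed the adjusted p alone, where 22.1% did. At an unadjusted p under 0.05 there were 2 of 8, *Sept11* and *Sept10*, beside 4491 of 12319 genes, so this count does not set the septins apart. On the recovered reads, edgeR's quasi-likelihood test and voom with limma gave 0 at the adjusted p alone, and DESeq2 gave 1, *Sept11* (adjusted p = 0.041). *Sept11* had a log2 fold change of -0.63 (SE 0.25, 95% interval -1.16 to -0.10, limma adjusted p = 0.081), and *Sept10* -0.61 (SE 0.28, -1.20 to -0.01, adjusted p = 0.13). Their groups did not overlap in 2 of 8 septins, *Sept11* lower and *Sept8* higher, against 33.7% of all genes, so that this share is near the background. The median over the 8 septins was -0.27, and over all genes tested 0.09.

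These values leaned on single control libraries. Without control replicate 1 *Sept10* had -0.97 (adjusted p = 0.0088) and *Sept11* -0.40 (0.25), and without control replicate 3 *Sept11* had -0.79 (0.049). Without both libraries that stood apart, *Sept10* had -0.97 (adjusted p = 0.0063), *Sept11* -0.40 (0.15) and *Sept2* 0.03, against 0.26 with them.

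In the fit that does not pair libraries, DOX+IL-17A against IL-17A gave 0 of 8 septins past both thresholds (9.84% of all genes). At the adjusted p alone 2 of 8 passed (13.3% of all genes). *Sept6* fell by 0.78 on the log2 scale (SE 0.22, 95% interval -1.25 to -0.31, limma adjusted p = 0.031), lower in 3 of 3 libraries. *Sept10* fell by 0.95 (SE 0.30, -1.58 to -0.31, adjusted p = 0.048), also in 3 of 3 libraries. *Sept7* had -0.55 (SE 0.20, -0.96 to -0.13, adjusted p = 0.078) and *Sept8* 0.23 (SE 0.17, -0.13 to 0.59, adjusted p = 0.41). Groups did not overlap for *Sept6*, *Sept7* and *Sept10*, all lower, and *Sept8*, higher, which is 4 of 8 against 32.0% of all genes. The median over the 8 septins was -0.18, and over all genes 0.02.

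Both calls depended on single libraries. *Sept6* was no longer past the test without DOX+IL-17A replicate 2 (-0.56, adjusted p = 0.13) or 3 (-0.85, 0.057), or without IL-17A replicate 3 (-0.85, 0.067) or 5 (-0.64, 0.12). For *Sept10*, the adjusted p was above 0.05 in 10 of the 13 fits with a library left out, and highest, at 0.15, without DOX+IL-17A replicate 2. It was also 0.051 with a pseudocount of 0.1, 0.052 with voom and 0.052 with edgeR, and *Sept6* had 0.065 in a fit of the groups compared alone. Library size scaling ended both calls, at -0.56 (adjusted p = 0.094) for *Sept6* and -0.73 (0.11) for *Sept10*. With the replicate number as a block, which pairs the libraries of these conditions, *Sept6* kept its call (adjusted p = 0.025) and *Sept10* lost it (0.055).

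In the average over both pairs of conditions, *Sept10* fell by 0.78 on the log2 scale with DOX (SE 0.21, 95% interval -1.21 to -0.34, limma adjusted p = 0.0088). *Sept6* fell by 0.52 (SE 0.15, -0.85 to -0.20, adjusted p = 0.015), and *Sept7* fell by 0.36 (SE 0.13, -0.65 to -0.08, adjusted p = 0.048). As folds these are 0.58, 0.70 and 0.78. That is 3 of 8 septins at the adjusted p alone, against 34.3% of all genes, and 0 of 8 at both thresholds, against 14.4%, so neither count sets the septins apart from other genes. *Sept8* had 0.26 (SE 0.12, 0.02 to 0.51, adjusted p = 0.091). It alone among the 8 had libraries with and without DOX that did not overlap, against 14.1% of all genes, so that this share is near the background. *Sept11* had -0.43 (SE 0.18, adjusted p = 0.077), *Sept2* 0.28 (SE 0.18, 0.25), *Sept9* -0.20 (SE 0.28, 0.61) and *Sept4* -0.09 (SE 0.34, 0.87). The intervals of the latter 3 reach from -0.11 to 0.67 for *Sept2*, -0.78 to 0.39 for *Sept9* and -0.81 to 0.63 for *Sept4*, so changes of that size lie within the error.

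*Sept10* and *Sept6* were past the test in all 13 fits with a library left out (adjusted p of at most 0.028 and 0.044), while *Sept7* was past it in 2 of 13, without control replicate 1 (-0.43, adjusted p = 0.011) and without DOX+IL-17A replicate 5 (-0.44, 0.020). *Sept7* also missed the threshold without the filter on reads (adjusted p = 0.053), with edgeR (0.055), and with the replicate number as a block (0.074). Without both control replicate 1 and IL-17A replicate 5, *Sept10* had -0.96, *Sept6* -0.52 (adjusted p = 0.0081) and *Sept7* -0.42 (0.012). In that setting *Sept11* had -0.20 and *Sept2* -0.00, against -0.43 and 0.28 with them.

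The direction and call of some septins also depended on scaling. In the averaged comparison the median of all genes was 0.06 under TMM and 0.23 under scaling by library size without TMM factors, a shift of 0.17. Under library size scaling *Sept8* passed the adjusted p alone (0.46, adjusted p = 0.0061) and so did *Sept10* (-0.58, 0.038), while *Sept6* (-0.33, 0.098) and *Sept7* (-0.16, 0.34) did not. Scaling changes all values of a library by a common factor. Values relative to the median of all genes thus had to be close under TMM and library size scaling, and they are no check of the calls. *Sept10* was at -0.84 and -0.81, *Sept6* at -0.59 and -0.55, *Sept7* at -0.42 and -0.39, and *Sept8* at 0.20 and 0.23. Of all genes past the adjusted p, 53.9% were higher with DOX under TMM and 71.4% under library size scaling.

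**Figure D3:**
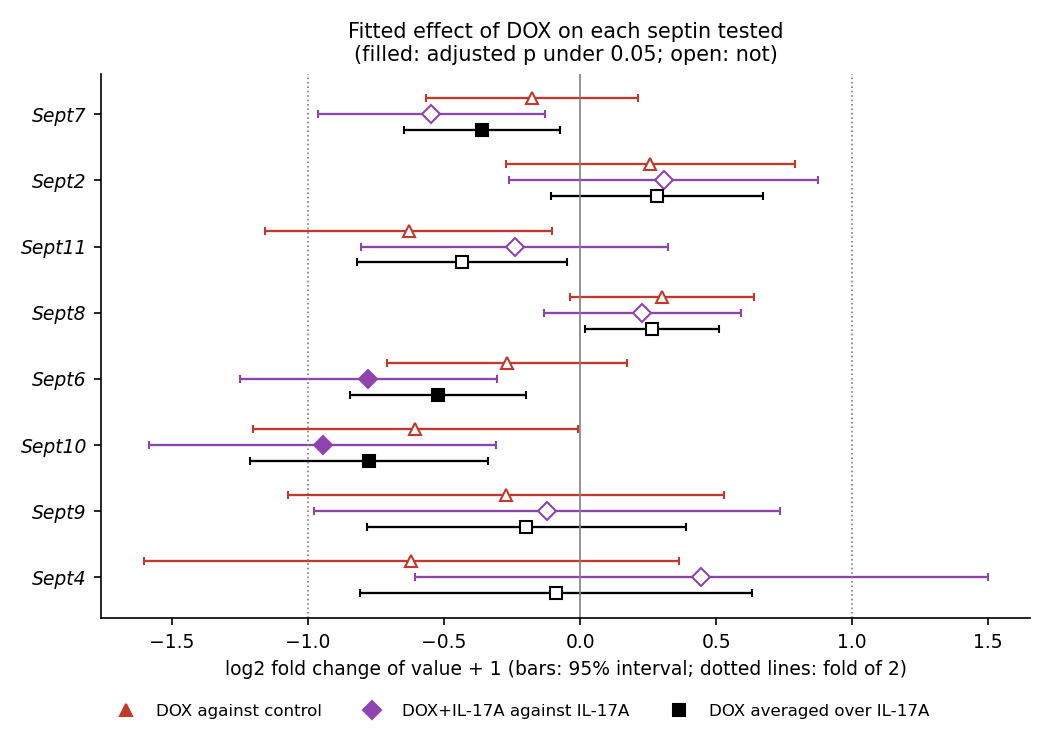
Log2 fold change of value + 1 (horizontal axis) with its 95% interval for the 8 septins tested, for DOX against control, DOX+IL-17A against IL-17A and their average. Filled symbols mark an adjusted p under 0.05 in the fit that does not pair libraries. These were *Sept6* and *Sept10* in DOX+IL-17A against IL-17A and *Sept6*, *Sept7* and *Sept10* on average. With the replicate number as a block, *Sept10* in DOX+IL-17A against IL-17A and *Sept7* on average did not pass. No point lies beyond the dotted lines at a fold of 2.

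The comparison of DOX+IL-17A against control, which shares its control libraries with DOX against control, gave 0 of 8 septins at both thresholds (12.9% of all genes) and 0 at the adjusted p alone (17.7%). The log2 fold changes ran from -0.65 to 0.41, and the lowest adjusted p was 0.15. Of the 8, 1 had an unadjusted p under 0.05, beside 4006 of 12319 genes. *Sept8* was the 1 of 8 whose groups did not overlap, against 30.1% of all genes. Voom with limma, edgeR and DESeq2 also gave 0. Without control replicate 1, *Sept10* passed both thresholds, and without DOX+IL-17A replicate 2 *Sept1* entered the test and passed both, as it did against IL-17A. *Sept1* then entered only through the 2 libraries in which it was high, so its call is no support for a difference.

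With IL-17A alone no septin passed the test. Of the 8, 0 passed both thresholds or the adjusted p alone in limma (0.00812% of all genes by either rule), and voom with limma, edgeR and DESeq2 gave 0. Also, 0 of 8 had an unadjusted p under 0.05, beside 380 of 12319 genes. The log2 fold changes ran from -0.61 to 0.36, with a lowest adjusted p of 0.96 and intervals reaching as far as 1.66 from 0. *Sept6* was the 1 of 8 with groups that did not overlap, higher with IL-17A, against 6.04% of all genes, and its nearest libraries were 117.0 units with IL-17A and 114.5 units in control.

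Added to DOX, IL-17A gave 0 of 8 septins at both thresholds (0.438% of all genes), 0 at the adjusted p alone (0.455%), and 0 with voom with limma, edgeR or DESeq2. It gave 0 of 8 at an unadjusted p under 0.05, beside 782 of 12319 genes. Fold changes ran from -0.15 to 0.46 on the log2 scale with a lowest adjusted p of 0.998, and groups that did not overlap were found for 0 of 8, against 10.3% of all genes. The interaction, that is, how far the effect of IL-17A differed when DOX was present, passed for 0 of 8 septins by limma and by the 3 other tools (0.0% of all genes). It had an unadjusted p under 0.05 for 0 of 8, beside 556 of 12319 genes. Its estimates ran from -0.51 to 1.07 with intervals reaching 2.51 from 0, so a difference of effects of 2-fold or more was within the error for some septins.

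The makeup of the septin pool was described by the share of each subgroup in the summed septin signal of a library, which does not depend on scaling between libraries. The SEPT7 subgroup held 38.5% ± 3.28 in control (SD, n = 3), 38.2% ± 2.40 with DOX (n = 4), 35.3% ± 3.55 with DOX+IL-17A (n = 3) and 42.5% ± 0.848 with IL-17A (n = 3). The SEPT6 subgroup held 40.4% ± 6.36, 34.2% ± 1.63, 34.7% ± 3.84 and 36.8% ± 6.73 in the same order. For the SEPT2 subgroup, nearly all of it *Sept2*, the shares were 20.3% ± 3.7, 26.8% ± 0.910, 29.3% ± 5.83 and 20.1% ± 6.96. The SEPT3 subgroup, here *Sept9*, stayed at 0.326% to 1.17% in every library. The SEPT2 share was 16.1% to 22.8% in control and 26.0% to 28.0% with DOX, without overlap, and 12.1% to 24.8% with IL-17A and 23.1% to 34.7% with DOX+IL-17A, with overlap. Control replicate 1 and IL-17A replicate 5 widened these spreads. Without them the SEPT2 share was 22.1% and 22.8% in control, and 24.8% and 23.5% with IL-17A. The SEPT6 share was 47.5% and 44.4% in those libraries, and 31.8% to 38.1% in the other libraries without DOX.

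**Figure D4:**
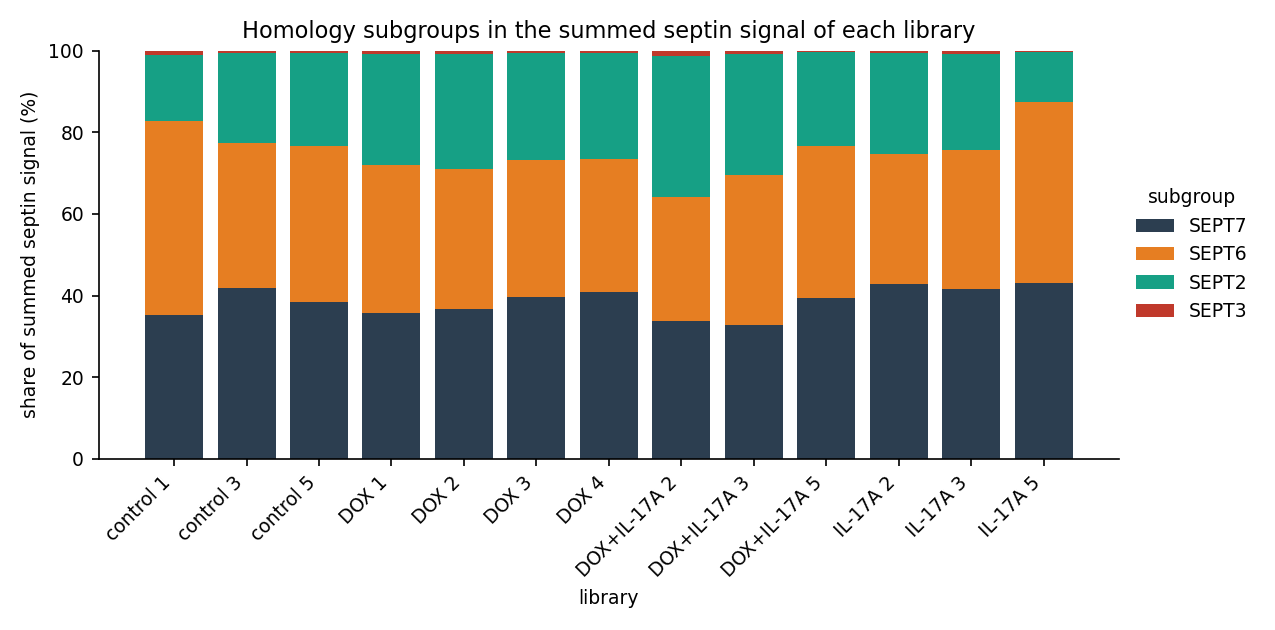
Share of each homology subgroup (vertical axis, % of the summed septin signal) in each of the 13 libraries (horizontal axis). The SEPT2 share (green) is smallest in IL-17A replicate 5, at 12.1%, and in control replicate 1, at 16.1%, and largest in DOX+IL-17A replicate 2, at 34.7%.

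Within the SEPT6 subgroup, *Sept8* made up 15.4% to 18.6% in control libraries and 14.2% to 19.4% with IL-17A, but 24.1% to 30.2% with DOX and 22.2% to 30.7% with DOX+IL-17A. Every library with DOX was thus above every library without it by this share. The share uses the same *Sept8* values, over a sum whose other members had estimates below 0 with DOX on average. It is thus no separate support for a difference in *Sept8*. *Sept11* was the largest member everywhere, at 39.0% to 62.8% of the subgroup. *Sept10* held 8.91% to 21.5% in control and 9.70% to 16.6% with DOX, with overlap, and 16.0% to 22.9% with IL-17A and 11.7% to 13.6% with DOX+IL-17A, without it.

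Genes that work with septins were taken from fixed lists. The BORG proteins, effectors of the small GTPase CDC42 that bind septins and shape their filaments, were all tested together with *Cdc42* (6 of 6). *Cdc42ep3* rose with DOX, from 11.7 ± 3.04 units in control (SD, n = 3) to 49.4 ± 27.5 units (SD, n = 4), a log2 fold change of 1.88 (SE 0.41, limma adjusted p = 0.0052). It also rose in DOX+IL-17A against IL-17A, from 12.99 ± 4.54 to 51.0 ± 24.6 units (1.82, SE 0.44, adjusted p = 0.015). It was the 1 of 6 that passed both thresholds in each of these comparisons, with 0 falling, beside 15.3% and 9.84% of all genes. The lowest were *Cdc42ep2* with DOX (-1.08, adjusted p = 0.054) and *Cdc42ep4* in DOX+IL-17A against IL-17A (-0.81, 0.43). The list's median was 0.66 and -0.31 in the 2 comparisons. At the adjusted p alone 1 of 6 rose and 0 fell in each, beside 22.1% and 13.3% of all genes that passed.

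Of 15 genes of the contractile ring and midbody, the structures that septins support in division, 0 rose and 2 fell with DOX against control, beside 15.3% of all genes that passed, and their median was -0.30. *Myh9*, a non-muscle myosin heavy chain, fell by 1.23 on the log2 scale (SE 0.23, limma adjusted p = 0.0020), from 702 ± 251 units to 287 ± 19.1 units. *Myh10*, another non-muscle myosin heavy chain, fell by 1.02 (SE 0.19, adjusted p = 0.0021), from 398 ± 77.6 to 194 ± 14.0 units. The highest of the list was *Kif23*, a kinesin of the midbody, at 0.78 (adjusted p = 0.13). In DOX+IL-17A against IL-17A 0 of 15 passed both thresholds, beside 9.84% of all genes, with a median of -0.20. The lowest was the formin gene *Diaph3* (-0.85, 0.054) and the highest the kinesin gene *Kif20a* (0.53, 0.38). At the adjusted p alone, 4 of 15 fell with DOX against control (22.1% of all genes passed) and 2 in DOX+IL-17A against IL-17A (13.3%). On average over both pairs of conditions 5 of 15 fell (34.3%), and 0 rose in these comparisons.

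Among 13 genes of actin and microtubule binding, 0 passed both thresholds with DOX against control, beside 15.3% of all genes. Their median was -0.08, with a range from *Hdac6* (-0.83, limma adjusted p = 0.13) to *Sorbs3* (0.80, 0.17). *Hdac6* encodes a tubulin deacetylase, and *Sorbs3* encodes vinexin, an adaptor at focal adhesions. In DOX+IL-17A against IL-17A 1 of 13 fell past both thresholds, beside 9.84% of all genes that passed. It was *Map4*, which encodes a microtubule-associated protein (-1.01, SE 0.27, limma adjusted p = 0.022). The list median was -0.31, with *Sorbs3* highest (0.48, 0.51). At the adjusted p alone, 1 of 13 fell with DOX against control (22.1% of all genes passed) and 3 in DOX+IL-17A against IL-17A (13.3%). On average over both pairs of conditions 5 of 13 fell (34.3%), and 0 rose in these comparisons. Under DOX+IL-17A against control, *Map7*, another microtubule-associated protein gene, fell by 1.02 (SE 0.34, adjusted p = 0.048), and so did *Myh9*, by 1.22 (SE 0.25, 0.0042), while *Cdc42ep3* rose by 1.92 (SE 0.44, 0.0086). In the 3 lists 0 genes passed in IL-17A against control (0.00812% of all genes), in DOX+IL-17A against DOX (0.438%) or for the difference of effects (0.0%).

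Patterns over the 13 libraries were compared by the root mean square difference of log2(value + 1), centred on each gene's mean, as a description in which all points share their libraries. The septins most alike were *Sept7* and *Sept6*, at 0.18, followed by *Sept6* and *Sept10*, at 0.32, and *Sept2* and *Sept8*, at 0.32. *Sept2* and *Sept11* were farther apart, at 0.67. Nearest to *Sept7* among all tested genes were *Uggt1*, at 0.13, *Tk1*, at 0.13, and *Fxr1*, at 0.14, where the median gene was at 0.57. Near to *Sept10* were *Rps10*, at 0.19, and *Dap*, at 0.20, where the median gene was at 0.72. A small value means only that the centred values lay close together, which genes that change little also reach. A gene with no change at all would lie at 0.26 from *Sept7* and at 0.52 from *Sept10*. Small values are thus no evidence of shared highs and lows, least of all between septins of small spread such as *Sept8*.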

How the data were processed

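Bulk RNA of 13 libraries was used. The authors prepared 3' mRNA libraries (QuantSeq FWD), and per the labels the reads were handled with FastQC, Trimmomatic, STAR and featureCounts on mm10. The counting strand is not given in the sources used here. The deposited table holds TMM-normalized signal for 13223 entries, of which 1 identical second entry was dropped, and it has no columns of other samples (0). Reads were recovered by dividing each column by the value of its single read (all values came out whole within a tolerance of 0.01).

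Groups were taken from the labels. The septins were tested in a fit of limma 3.58.1 with trend on log2(value + 1), 13 libraries, a term for condition alone and 9 residual degrees of freedom, over 12319 genes kept by filterByExpr of edgeR 4.0.16. There were 7 comparisons. Replicate numbers come from the labels, and the 3 same-numbered pairs of DOX+IL-17A and IL-17A deviated together from their condition means (r = 0.17, 0.20 and 0.35), which was taken as pairing in that comparison. Alternatives were no filter, library size scaling, a pseudocount of 0.1, the replicate number as a block, the groups compared alone, voom with limma, edgeR's quasi-likelihood test, DESeq2 1.42.0 and each library left out. The averaged comparison and the setting without control replicate 1 and IL-17A replicate 5 were added after the values were seen. Methods were tested on simulated data with changes larger than those found for the septins, so the simulation gives no measure of power at their sizes.

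All listed septins were named. Partner genes were named where they passed both thresholds or were the highest or lowest of their list, and the 3 genes nearest in pattern were named for the most abundant septin and for the one with the widest range of condition means, except that 1 of these genes is not reported here. Members and lists were chosen with earlier results of these data known. Coordinates, promoters and gene lists of septins are from RefSeq, strands and overlaps from GENCODE, and near copies from blastn 2.17.0 on the transcripts' ends. R 4.3.3, python 3.11.15, numpy 2.4.6, pandas 2.3.3, scipy 1.17.1 and matplotlib 3.10.9 were used.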

Additional observations from a re-analysis of the deposited data

How the results depend on the processing

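Of the septin counts, those of the averaged comparison (2 to 4 of the tested septins at the adjusted p alone) and of IL-17A against control and DOX+IL-17A against DOX (0) stayed within 1.5 times under the settings run. At the adjusted p alone in DOX against control, the count of 0 became 1 under library size scaling, DESeq2 and without control replicate 1 and IL-17A replicate 5, and 0 to 1 with a library left out. In DOX+IL-17A against control, 0 became 1 without those 2 libraries by either rule, and 0 to 1 with a library left out. In DOX+IL-17A against IL-17A, the count of 2 at the adjusted p alone became 0 under library size scaling, 1 with a pseudocount of 0.1, voom, edgeR or only the groups compared, and 0 to 3 with a library left out, and that at both thresholds 0 to 1. The cause was not tested. DESeq2 and the fit without the 2 libraries gave 3. The average and the difference of effects were not refitted on only the groups compared, which are all conditions.

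Library size scaling gave 0.0025 for *Sept7* with DOX against control, 0.080 for *Sept9* in DOX+IL-17A against IL-17A and 0.011 for *Sept4* on average. *Sept4* on average was 0.077 with a pseudocount of 0.1, 0.27 with voom, 0.27 without the 2 libraries, and -0.29 to 0.19 with a library left out (above 0 without DOX replicate 2, DOX+IL-17A replicate 2 or IL-17A replicate 5). In DOX+IL-17A against IL-17A, the fits with a library left out ran from -0.037 (without IL-17A replicate 5) to 0.53 for *Sept2*, from -0.41 to 0.0016 for *Sept11* (above 0 without IL-17A replicate 5 or DOX+IL-17A replicate 2) and from -0.45 to 0.25 for *Sept9* (above 0 without DOX+IL-17A replicate 5 or IL-17A replicate 3). Without the 2 libraries *Sept2* had -0.037 and *Sept11* 0.0016 there, and *Sept2* averaged -0.0038. Under library size scaling, levels moved beyond 1 SD for *Sept7* (686 units), *Sept8* (100.8 units) and *Sept10* (114 units) with IL-17A, *Sept2* (402 units) and *Sept6* (88.7 units) with DOX, and *Sept8* (138 units) with DOX+IL-17A.

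Over all conditions 8 of 13 same-numbered pairs deviated together at a correlation over 0.1 (mean 0.15, against -0.04 over 50 other pairs, of which 13 were over 0.1), so not every pair did, except in DOX+IL-17A against IL-17A. With the replicate block (5 residual degrees of freedom), the count in DOX+IL-17A against IL-17A at the adjusted p alone was 1, *Sept6* (adjusted p = 0.025), and *Sept7* averaged -0.36 (adjusted p = 0.074), with no other septin call changed. Depth limits *Sept1*, *Sept4* and *Sept9*, with at most 29, 34 and 186 reads a library.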
